A study of Mus musculus with 12 samples.

Results

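The circadian clock genes described here are Hlf, Dbp, Tef, Per1, Per2, Per3, Nr1d1, Nr1d2, Arntl and Clock, 10 of the 18193 genes on the array. They were measured in tumours of mouse MC38 colon carcinoma cells with or without APC. All 26 probe sets annotated to one of these symbols alone were taken, of 45101 on the array. Hlf was chosen because its value in APC-deleted tumours was already known to stand apart, so its genotype difference is given as a description with no test.

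The series asked what TDO2, an enzyme that breaks down tryptophan, does in colon tumours in which APC, a scaffold that keeps beta-catenin low, was intact or deleted. All 4 groups were tumours established in the cecum of C57BL/6 mice from MC38 cells that carried an inducible hairpin against Tdo2 (ishTDO2). The groups were APC-WT without doxycycline (APC-WT no Dox), APC-WT with doxycycline in the water (APC-WT Dox), APC-KO without it (APC-KO no Dox) and APC-KO with it (APC-KO Dox), with 3 tumours each and 12 arrays in all. The sources used here give no ages, no number of clones behind each genotype, no deleted part of Apc and no time of day at which tumours were taken. They also do not say whether each tumour is from its own animal, so p-values measure how these samples vary, and part of that may be technical. No tumours with doxycycline but without the hairpin were analysed here, so the hairpin and doxycycline itself cannot be told apart.

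The molecular clock is a feedback loop. CLOCK and BMAL1, the product of Arntl, pair and bind E-box sequences, where they drive the Per and Cry genes, whose products in turn repress that pair. REV-ERB alpha and beta, from Nr1d1 and Nr1d2, repress Arntl through a response element that ROR receptors also bind, and Dbp, Tef and Hlf encode the 3 PAR-bZIP factors, clock-controlled activators that bind D-box sequences. Because transcripts of most of these genes swing with the time of day, a single sample per tumour reads a level at an unknown phase.

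The promoters of 4 of these genes are shown because Hlf and Arntl stood apart by genotype, Per1 by doxycycline, and Per3 went with Dbp and Nr1d2 within groups. Each line holds the 250 bases before an annotated transcript start, from RefSeq (GRCm38.p6), 5′ to 3′ on the gene's strand. Capitals mark matches to the motifs searched on both strands: the E-box CACGTG and its variant CACGTT, the D-box TTATGTAA and its variant TTACGTAA, the receptor element AGGTCA, and the cyclic AMP response element TGACGTCA.
Hlf, chr11:90390918-90391167, minus strand: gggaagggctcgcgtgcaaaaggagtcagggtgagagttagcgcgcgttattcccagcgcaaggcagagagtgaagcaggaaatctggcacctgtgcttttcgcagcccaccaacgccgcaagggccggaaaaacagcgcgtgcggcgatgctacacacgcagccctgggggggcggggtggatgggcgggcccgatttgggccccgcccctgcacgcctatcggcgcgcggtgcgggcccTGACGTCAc
Arntl, chr7:113207215-113207464, plus strand: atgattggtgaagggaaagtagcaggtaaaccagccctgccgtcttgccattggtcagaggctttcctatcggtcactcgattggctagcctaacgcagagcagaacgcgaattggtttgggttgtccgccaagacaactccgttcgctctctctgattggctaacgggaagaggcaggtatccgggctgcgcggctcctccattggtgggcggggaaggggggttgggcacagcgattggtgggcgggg
Per1, chr11:69098699-69098948, plus strand: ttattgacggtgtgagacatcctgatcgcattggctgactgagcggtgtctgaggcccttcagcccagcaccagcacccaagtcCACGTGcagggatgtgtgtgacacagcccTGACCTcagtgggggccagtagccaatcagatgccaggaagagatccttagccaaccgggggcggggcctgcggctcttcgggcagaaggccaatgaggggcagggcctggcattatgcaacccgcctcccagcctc
Per3, chr4:151044666-151044915, minus strand: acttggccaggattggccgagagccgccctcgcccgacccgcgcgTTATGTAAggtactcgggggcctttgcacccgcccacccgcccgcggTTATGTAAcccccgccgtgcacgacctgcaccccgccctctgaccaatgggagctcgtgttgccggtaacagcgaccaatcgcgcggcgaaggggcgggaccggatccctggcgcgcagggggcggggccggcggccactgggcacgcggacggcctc
The Hlf window held TGACGTCA at -9 from the start, a motif found in 1.55% of 32851 mouse promoter windows of the same length. The Per1 window held CACGTG at -166 and AGGTCA, read on the other strand, at -137, found in 6.02% and 14.0% of windows. The Per3 window held TTATGTAA at -205 and at -158, and this motif was in 0.819% of windows. None of the searched letters were in the Arntl window. The whole element that ROR and REV-ERB receptors bind was not searched, so its presence at Arntl is not settled by this. Windows were found for all of the genes but Per2, 14 in all, and the other windows of Per1 and Arntl held no match. Of the genes not shown, Tef held CACGTG, Nr1d1 CACGTT, and Nr1d2 and Clock AGGTCA. The variants CACGTT and TTACGTAA were in 3.85% and 0.113% of all windows. A match describes letters only, and binding was not measured.

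Values are log2 expression values and differences are in log2 units, each ± its standard error in limma, over 3 tumours a group. A gene was tested where its brightest probe set had a mean at or above 5.55, the median of all probe sets, which is called the floor here; 11070 genes were tested, and p-values were adjusted over all of them (Benjamini-Hochberg). A gene passed at an adjusted p under 0.05. Of the 26 probe sets 18 lay at or above the floor, and 9 of the 10 genes entered the fit, Hlf without a test of its own. Nr1d1 did not: its single probe set had a mean of 5.43 and lay under the floor on 10 of 12 arrays.

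Hlf was the gene that separated the genotypes most among the 10. Its brighter probe set read 6.02, 6.32 and 6.06 in APC-WT no-Dox tumours and 5.98, 6.09 and 5.99 in APC-WT Dox tumours. It read 7.61, 8.18 and 7.89 in APC-KO no-Dox tumours and 7.80, 8.09 and 7.64 in APC-KO Dox tumours. All 6 APC-KO tumours thus lay above all 6 APC-WT tumours, with or without doxycycline. The difference was 1.76 ± 0.14 without and 1.83 ± 0.14 with doxycycline, or 3.39-fold and 3.55-fold, and with any 1 array left out it stayed between 1.62 and 1.90 and between 1.70 and 1.93. The other probe set for Hlf gave a smaller difference of the same direction, 1.14 ± 0.15 in both states. With doxycycline Hlf differed by -0.11 ± 0.14 in APC-WT and by -0.05 ± 0.14 in APC-KO tumours. Both were smaller than the standard deviation left within the 4 groups, 0.203. In APC-WT Dox tumours alone that deviation was 0.06.

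The remaining PAR-bZIP genes did not follow Hlf. Dbp, the member of this family with the widest daily swing in many tissues, read 7.31, 7.11 and 7.24 in APC-WT no-Dox, 7.26, 7.34 and 6.75 in APC-WT Dox, 7.35, 7.08 and 7.41 in APC-KO no-Dox and 6.94, 7.11 and 7.14 in APC-KO Dox tumours. The groups overlapped in all 4 comparisons, and the lowest tumour was APC-WT Dox tumour 3. Dbp differed between genotypes by 0.06 ± 0.14 without and -0.05 ± 0.14 with doxycycline, with a 95% interval of the first from -0.24 to 0.35. Tef read 8.98, 9.11 and 9.06, then 9.07, 9.18 and 8.88, then 9.07, 8.98 and 9.01, then 8.88, 8.99 and 8.96 in the same order of groups. Its genotype differences were -0.03 ± 0.07 and -0.10 ± 0.07, and neither gene passed in any comparison, with adjusted p in limma between 0.369 and 0.973 in the 4 comparisons.

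**Figure D1:**
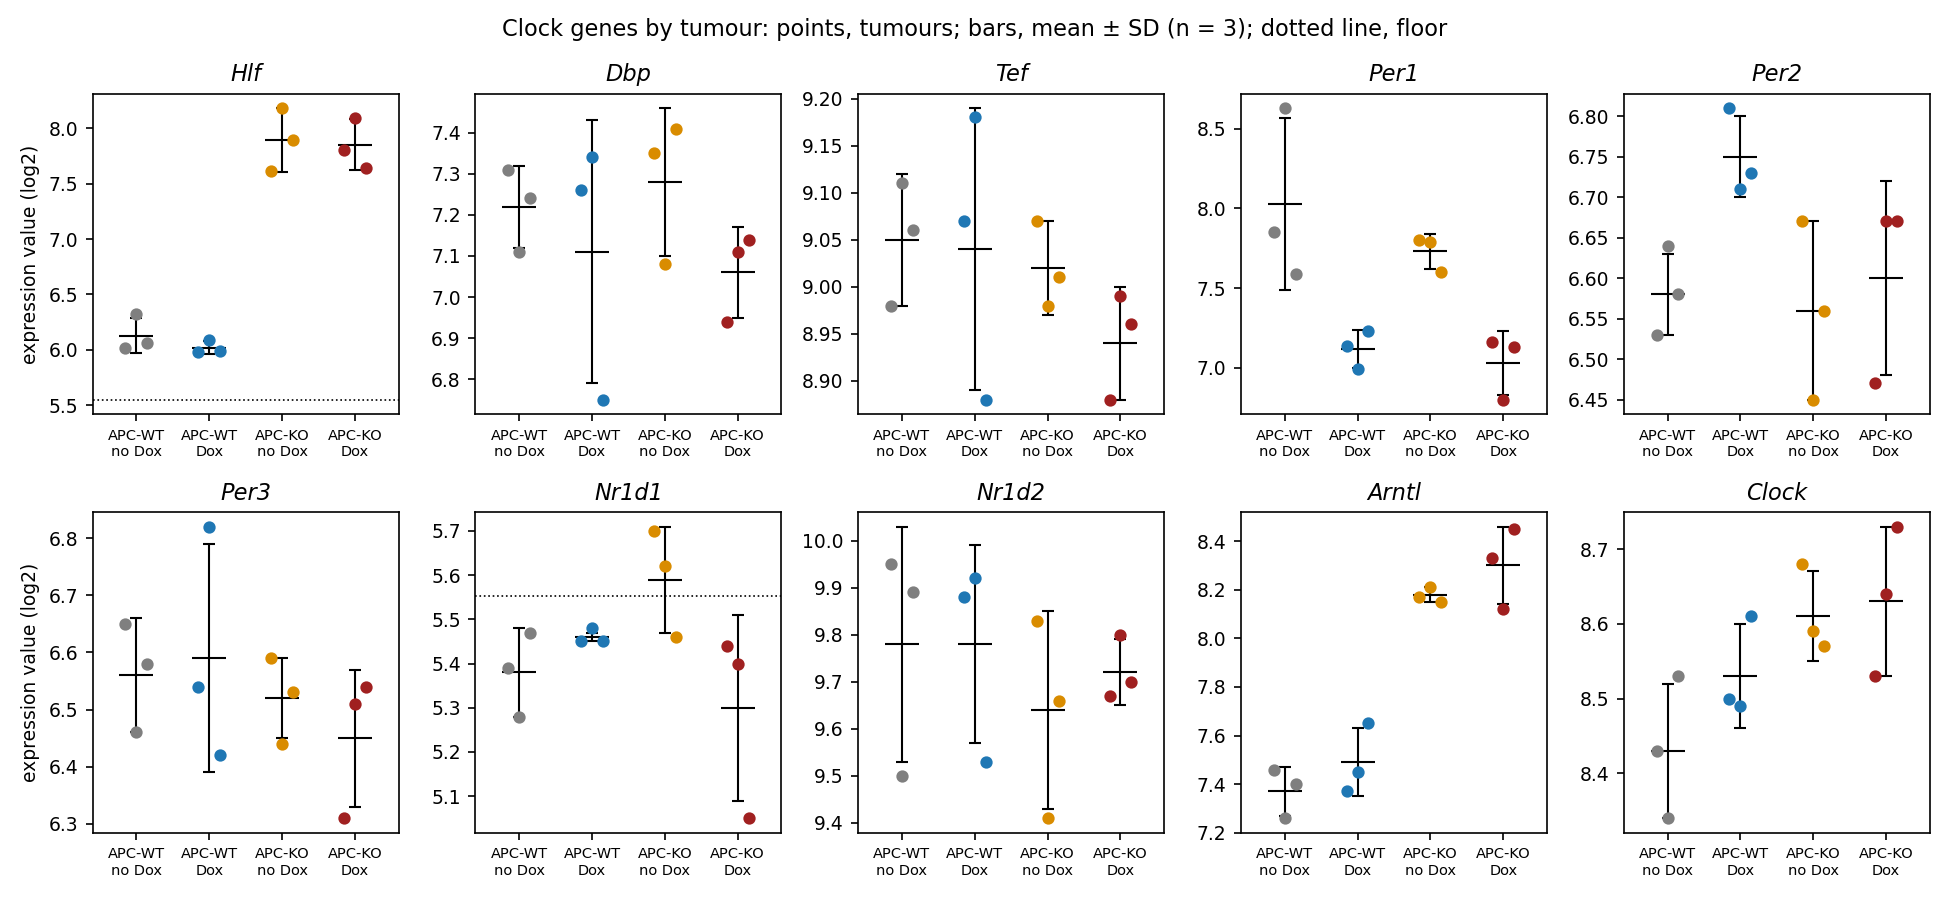
Log2 expression value (y axis) of the 10 clock genes, brightest probe set each, in the 4 groups (x axis); points are tumours, bars are the mean ± SD of 3, and the dotted line in the Hlf and Nr1d1 panels is the floor. The Hlf and Arntl panels show both APC-KO groups above both APC-WT groups, and the Per1 panel shows both Dox groups below both no-Dox groups; y axes differ between panels.

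Arntl, which encodes BMAL1, was higher in APC-KO tumours. It read 7.46, 7.26 and 7.40 in APC-WT no-Dox tumours, 7.37, 7.45 and 7.65 in APC-WT Dox tumours, 8.17, 8.21 and 8.15 in APC-KO no-Dox tumours and 8.33, 8.12 and 8.45 in APC-KO Dox tumours. The lowest APC-KO tumour lay above the highest APC-WT tumour. The difference was 0.80 ± 0.09 without doxycycline, or 1.75-fold (adjusted p in limma 4.41e-05), and 0.81 ± 0.09 with it (adjusted p 3.93e-05). With any 1 array left out the differences stayed between 0.75 and 0.85 and between 0.74 and 0.90, and the highest adjusted p was 0.000438. The second Arntl probe set lay under the floor on all 12 arrays and differed by 0.10 ± 0.11 in both states, so the call rests on 1 probe set. With doxycycline Arntl differed by 0.12 ± 0.09 in each genotype and did not pass (adjusted p 0.566 and 0.612).

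Clock, which encodes the partner of BMAL1, was read by 4 probe sets that disagreed in direction. The brightest read 8.43, 8.34 and 8.53 in APC-WT no-Dox, 8.50, 8.49 and 8.61 in APC-WT Dox, 8.68, 8.59 and 8.57 in APC-KO no-Dox and 8.53, 8.64 and 8.73 in APC-KO Dox tumours. Genotypes did not overlap without doxycycline and overlapped with it. This probe set was higher in APC-KO by 0.18 ± 0.07 without doxycycline (adjusted p 0.0783) and 0.10 ± 0.07 with it (adjusted p 0.346), neither of which passed, but the first passed without APC-WT no-Dox tumour 3 (adjusted p 0.0413). The second brightest was at -0.17 ± 0.08 and -0.19 ± 0.08, and the third at -0.21 ± 0.09 and -0.33 ± 0.09, of which the last passed over all probe sets (adjusted p 0.0255). No direction is therefore given for Clock, and which transcripts each probe set reads was not examined.

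**Figure D2:**
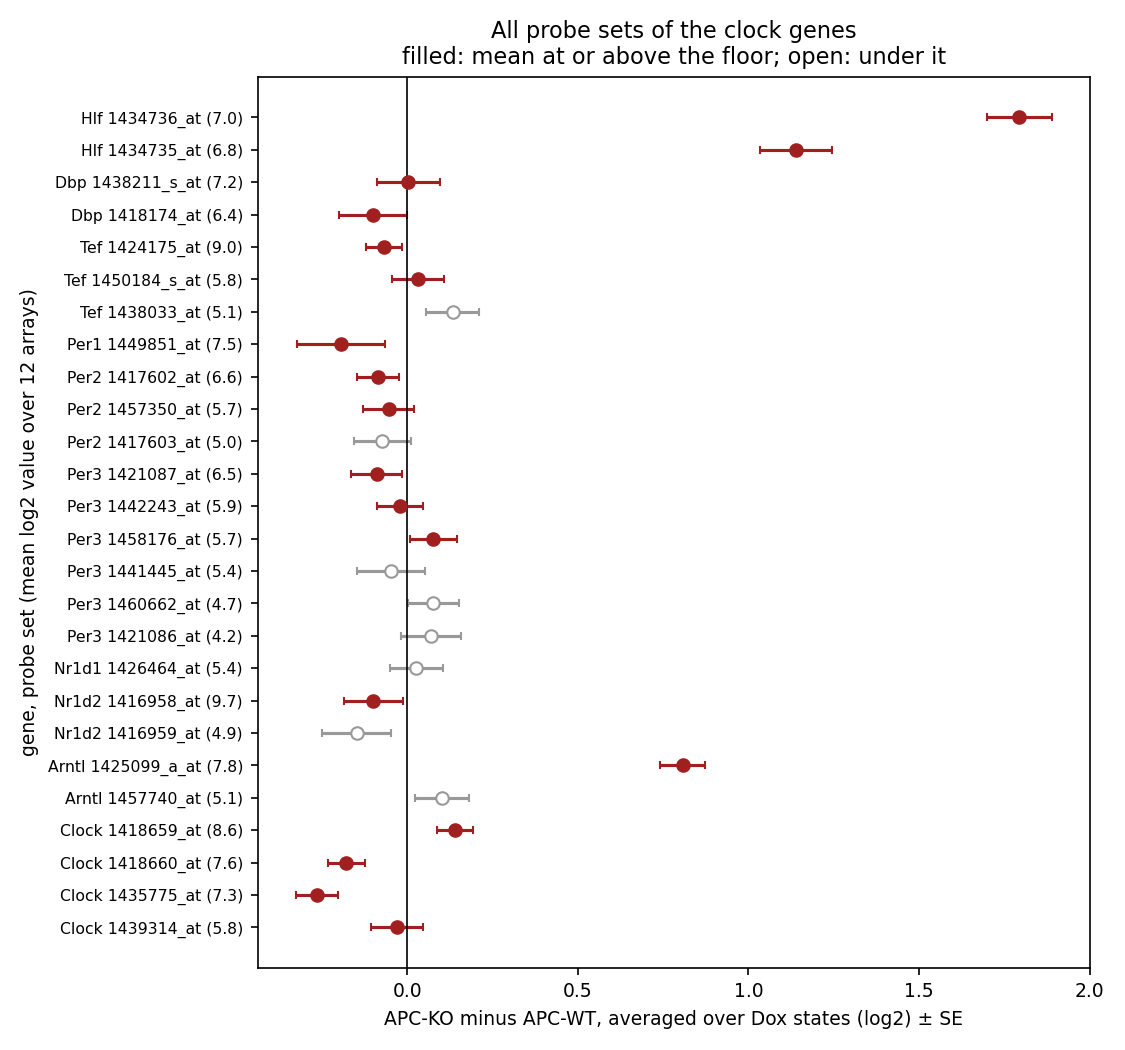
Difference between genotypes averaged over both Dox states, APC-KO minus APC-WT (x axis, log2, ± SE), for each of the 26 probe sets (y axis, with its mean value over 12 arrays); filled points have a mean at or above the floor and open points lie under it. Both Hlf probe sets lie at 1.14 or higher, 1 of 2 Arntl probe sets lies at 0.81, and the 4 Clock probe sets run from -0.27 to 0.14.

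Hlf was chosen on the difference between genotypes and is left out of the counts that follow. Without doxycycline 1 of the other 8 genes in the fit passed between genotypes, Arntl, beside 24.9% of all tested genes. With doxycycline it was again 1 of 8, Arntl, beside 19.9%, so neither share was above that of all genes. The groups did not overlap for 2 of 8 without doxycycline (Arntl and Clock), beside 37.2% of all genes, and for 2 of 8 with it (Arntl and Per2), beside 41.4%. Averaged over both Dox states, a comparison added after the values were seen, Arntl and the brightest Clock probe set passed, 2 of 8 beside 36.5% of all genes. The Clock difference there was 0.14 ± 0.05 (adjusted p 0.0402), and it was lost without any of 8 of the 12 arrays in turn, with an adjusted p of up to 0.1002. Of these 8 the values were 0.14, 0.12, 0.13 and 0.13 without APC-WT no-Dox tumours 1 and 2 and APC-WT Dox tumours 1 and 2. They were 0.12, 0.15, 0.14 and 0.12 without APC-KO no-Dox tumours 1 and 2 and APC-KO Dox tumours 2 and 3.

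RNA came from whole tumours, so fewer cells of a type and less RNA per cell cannot be told apart. Beside the marker counts that follow, 24.9% of all tested genes passed between genotypes without and 19.9% with doxycycline. T and NK cell markers moved with genotype: of 6, 5 were tested, and 4 (Cd3e, Cd3g, Cd8a and Nkg7) were lower in APC-KO tumours in each Dox state. Their summed log2 level ran from 41.20 to 42.41 in APC-WT no-Dox and from 38.91 to 39.77 in APC-KO no-Dox tumours, and from 40.15 to 41.33 and from 37.45 to 40.04 with doxycycline. Of the fibroblast markers 1 of 6 was higher in APC-KO without doxycycline and 3 of 6 with it. Of the 5 endothelial markers 4 were tested, and 0 and 3 of these were higher. The summed fibroblast level was 69.64 to 70.97 in APC-WT no-Dox against 69.27 to 71.65 in APC-KO no-Dox tumours, and 69.24 to 70.13 against 71.07 to 71.19 with doxycycline. Of the 5 neutrophil markers 3 were tested: all 3 were higher in APC-KO without doxycycline, and 2 were lower with it. Of the 5 epithelial tumour cell markers 3 were tested, and Krt8 was lower in APC-KO without doxycycline and Cdh1 higher with it. Without doxycycline the 18S ribosomal RNA signal, as a mean of its 3 probe sets, was 9.20 to 9.33 with APC-WT and 9.47 to 9.76 with APC-KO, and the 3′ minus 5′ signal of Gapdh was -0.116 to -0.092 and -0.184 to -0.154. With doxycycline 18S overlapped, at 9.06 to 9.33 and 8.96 to 9.24, and Gapdh lay the other way round, at -0.188 to -0.158 and -0.156 to -0.111. All 6 markers of colon epithelium lay under the floor, and the part of these cells and signals in the Hlf and Arntl differences was not tested. Tdo2 lay under the floor with all 3 probe sets, and of the 4 Apc probe sets 2 were lower in APC-KO without doxycycline and 3 with it. The largest Apc differences were -0.84 ± 0.09 and -0.94 ± 0.09 (adjusted p over all probe sets 1.02e-05 and 3.08e-06), the next were -0.41 ± 0.11 and -0.49 ± 0.11 (0.0187 and 0.00647), the brightest probe set was at -0.10 ± 0.07 and -0.24 ± 0.07 (0.416 and 0.0443), and the last lay under the floor.

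Per1, a repressor of the CLOCK and BMAL1 pair that also responds quickly to hormones and cyclic AMP, was the gene of the 10 with the largest difference with doxycycline. It read 7.85, 8.63 and 7.59 in APC-WT no-Dox tumours and 7.14, 6.99 and 7.23 in APC-WT Dox tumours. It read 7.80, 7.79 and 7.60 in APC-KO no-Dox tumours and 7.16, 6.80 and 7.13 in APC-KO Dox tumours. In each genotype all Dox tumours lay below all no-Dox tumours, and the highest value was that of APC-WT no-Dox tumour 2. The difference was -0.90 ± 0.19 in APC-WT (adjusted p in limma 0.105) and -0.70 ± 0.19 in APC-KO tumours (adjusted p 0.143), and neither passed. Without APC-WT no-Dox tumour 2 the APC-WT difference was -0.60 ± 0.12 and did not pass, while the APC-KO difference passed (adjusted p 0.0122). Without APC-WT no-Dox tumour 3 the APC-WT difference was -1.12 ± 0.18 and passed (adjusted p 0.0124).

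Averaged over both genotypes, a comparison added after the Per1 values were seen, Per1 fell by 0.80 ± 0.14, or 1.74-fold (adjusted p in limma 0.0191). It lay between -0.91 and -0.65 with any 1 array left out. The call was lost without APC-WT Dox tumour 1 (adjusted p 0.0642), APC-WT Dox tumour 2 (0.0547) or APC-KO Dox tumour 3 (0.0510). The interaction of doxycycline and genotype was 0.20 ± 0.27 (adjusted p 0.821), with a 95% interval from -0.39 to 0.79. No difference between genotypes passed for Per1, at -0.30 ± 0.19 without and -0.09 ± 0.19 with doxycycline.

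**Figure D3:**
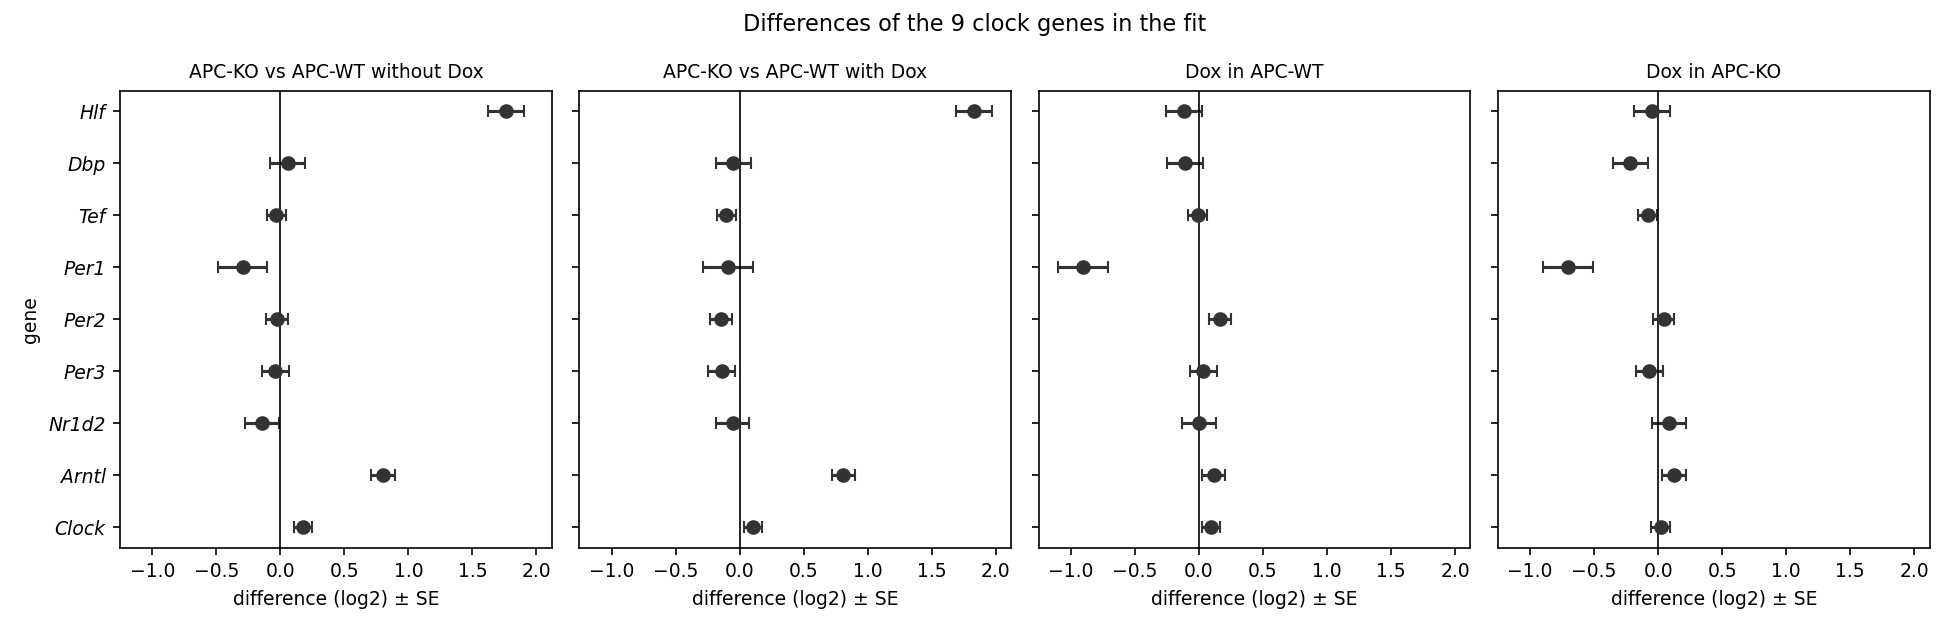
Differences (x axis, log2, ± SE) of the 9 clock genes in the fit (y axis) in 4 comparisons: APC-KO minus APC-WT without and with Dox, and Dox minus no Dox in APC-WT and in APC-KO. Hlf and Arntl lie to the right in both genotype panels, and Per1 lies at -0.90 and -0.70 in the Dox panels while the other 8 genes lie between -0.22 and 0.16 there.

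Within the Per family the 3 genes did not move alike. Per2 read 6.53, 6.64 and 6.58 in APC-WT no-Dox, 6.81, 6.71 and 6.73 in APC-WT Dox, 6.67, 6.45 and 6.56 in APC-KO no-Dox and 6.47, 6.67 and 6.67 in APC-KO Dox tumours. All 3 APC-WT Dox tumours lay above the APC-WT no-Dox and the APC-KO Dox tumours. The differences were 0.16 ± 0.08 with doxycycline in APC-WT (adjusted p 0.361) and -0.15 ± 0.08 between genotypes with doxycycline (adjusted p 0.249), and neither passed. With the mean of its probe sets in place of the brightest, the latter was -0.20 ± 0.06 and passed (adjusted p 0.0342). Per3 read 6.65, 6.46 and 6.58, then 6.54, 6.82 and 6.42, then 6.59, 6.44 and 6.53, then 6.31, 6.51 and 6.54 in the same order of groups. Its values overlapped in all 4 comparisons, and its differences lay between -0.14 ± 0.11 and 0.03 ± 0.11.

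Of the REV-ERB genes only Nr1d2 was bright enough to test. It read 9.95, 9.50 and 9.89 in APC-WT no-Dox, 9.88, 9.92 and 9.53 in APC-WT Dox, 9.83, 9.41 and 9.66 in APC-KO no-Dox and 9.67, 9.80 and 9.70 in APC-KO Dox tumours. The groups overlapped throughout, and 1 low tumour in each of the first 3 groups widened the spread. The genotype differences were -0.14 ± 0.13 (95% interval -0.42 to 0.14) and -0.05 ± 0.13. Whether REV-ERB had a part in the Arntl difference was not tested. Nr1d1 read 5.39, 5.28 and 5.47, then 5.45, 5.48 and 5.45, then 5.70, 5.62 and 5.46, then 5.44, 5.40 and 5.05 in that order, mostly under the floor.

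With doxycycline 0 of the 9 genes in the fit passed in limma in APC-WT tumours, beside 0.0271% of all tested genes, and 0 of 9 in APC-KO tumours, beside 0.542%. Hlf is counted among the 9 here and below but had no test of its own, so these counts speak for the other genes only. At an unadjusted p under 0.05 there was 1 of 9 in each genotype, Per1, beside 1716 of the 11070 genes in the APC-WT comparison and 1446 in the APC-KO one. The groups did not overlap for Per1 and Per2 in APC-WT tumours, beside 21.3% of all genes, and for Per1 in APC-KO tumours, beside 17.7%. Averaged over genotypes 1 of 9 passed, beside 0.958%. The interaction was passed by 0 of 9 and by 0% of all genes in limma, with 0 of the 9 and 1312 of the 11070 at an unadjusted p under 0.05. These shares rest on single tumours: without APC-WT no-Dox tumour 3 the genes that passed numbered 418 in APC-WT and 119 in the interaction, against 3 and 0. Without APC-KO Dox tumour 3 they numbered 1 in APC-KO and 11 averaged over genotypes, against 60 and 106.

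Genes outside the 10 that share regulators with Per1 were read from lists chosen for the clock, for glucocorticoid response and for acute responses to cyclic AMP and serum. Klf9, a Krüppel-like factor that is both an output of the clock and a glucocorticoid target, read 9.90, 10.19 and 9.77 against 9.24, 9.50 and 9.52 in APC-WT and 9.68, 10.09 and 9.78 against 9.48, 9.19 and 9.34 in APC-KO tumours. Dusp1, a phosphatase that switches off MAP kinases, read 8.62, 9.26 and 8.37 against 8.03, 8.12 and 8.17 in APC-WT and 8.92, 8.84 and 8.68 against 8.00, 8.10 and 8.02 in APC-KO tumours. APC-WT no-Dox tumour 2, the highest in Per1, was also the highest APC-WT tumour for both genes. For both genes every Dox tumour lay below every no-Dox tumour of its genotype. Averaged over genotypes Klf9 fell by 0.52 ± 0.09 (adjusted p 0.0191) and Dusp1 by 0.71 ± 0.11 (adjusted p 0.0169). Of the 7 glucocorticoid-responsive genes 6 were tested and 3 fell in that comparison, where 0.958% of all tested genes passed in either direction. These 3 were Dusp1, Cebpd (-0.70 ± 0.13), a C/EBP transcription factor, and Errfi1 (-0.47 ± 0.09), an inhibitor of the EGF receptor. Fkbp5 did not pass, with means of 10.64 without and 10.67 with doxycycline in APC-WT and 10.57 and 10.47 in APC-KO tumours. The median of the 6 was -0.37, beside -0.002 over all genes. The list was chosen with earlier results of these data known, and the averaged comparison was added after the Per1 values were seen. The count and the median are therefore descriptions and no test of the list. Whether glucocorticoids had a part in the Per1 difference was not tested. In APC-KO tumours alone Cebpd (-1.11 ± 0.18, adjusted p 0.0124) and Dusp1 (-0.77 ± 0.16, adjusted p 0.04998) passed, and in APC-WT tumours 0 of the 6 did. The Cebpd call was lost without APC-KO no-Dox tumour 1 or APC-KO Dox tumour 2 or 3 (adjusted p 0.0738, 0.0711 and 0.0684), and the Dusp1 call without any of 10 arrays in turn, all but APC-WT no-Dox tumours 2 and 3, with adjusted p up to 0.182.

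Sgk1, a kinase gene and a classical glucocorticoid target, was at -0.27 ± 0.08 and did not pass (adjusted p 0.102), and neither did Tsc22d3 at -0.21 ± 0.13. Between genotypes both were higher in APC-KO with doxycycline, Tsc22d3 by 0.65 ± 0.18 and Sgk1 by 0.39 ± 0.11 (adjusted p 0.0198 and 0.0214). Both of these calls were lost without APC-WT Dox tumour 1 (adjusted p 0.0543 and 0.0852) or APC-WT Dox tumour 2 (0.0613 and 0.0651), and 1 each without APC-KO Dox tumour 3 (Tsc22d3, 0.0742) and APC-KO Dox tumour 1 (Sgk1, 0.0687). Of the 7 acute response genes 0 passed with doxycycline in either genotype or averaged, and their averaged median was -0.12. Of the 10 tested clock partners 0 passed. Of 7 tested outputs 1 fell averaged over genotypes, Klf9, beside 0.958% of all tested genes in either direction. Without APC-WT Dox tumour 1 the averaged calls of Klf9, Dusp1, Errfi1 and Cebpd were lost, with adjusted p of 0.0642, 0.0558, 0.0778 and 0.0778. Without APC-KO Dox tumour 3 they were also lost, with 0.0510, 0.0510, 0.0748 and 0.0690. Errfi1 was also lost without APC-WT no-Dox tumour 1 (0.0653) or APC-KO Dox tumour 2 (0.0524), and Cebpd without APC-WT Dox tumour 2 (0.0621) or APC-KO Dox tumour 2 (0.0517).

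**Figure D4:**
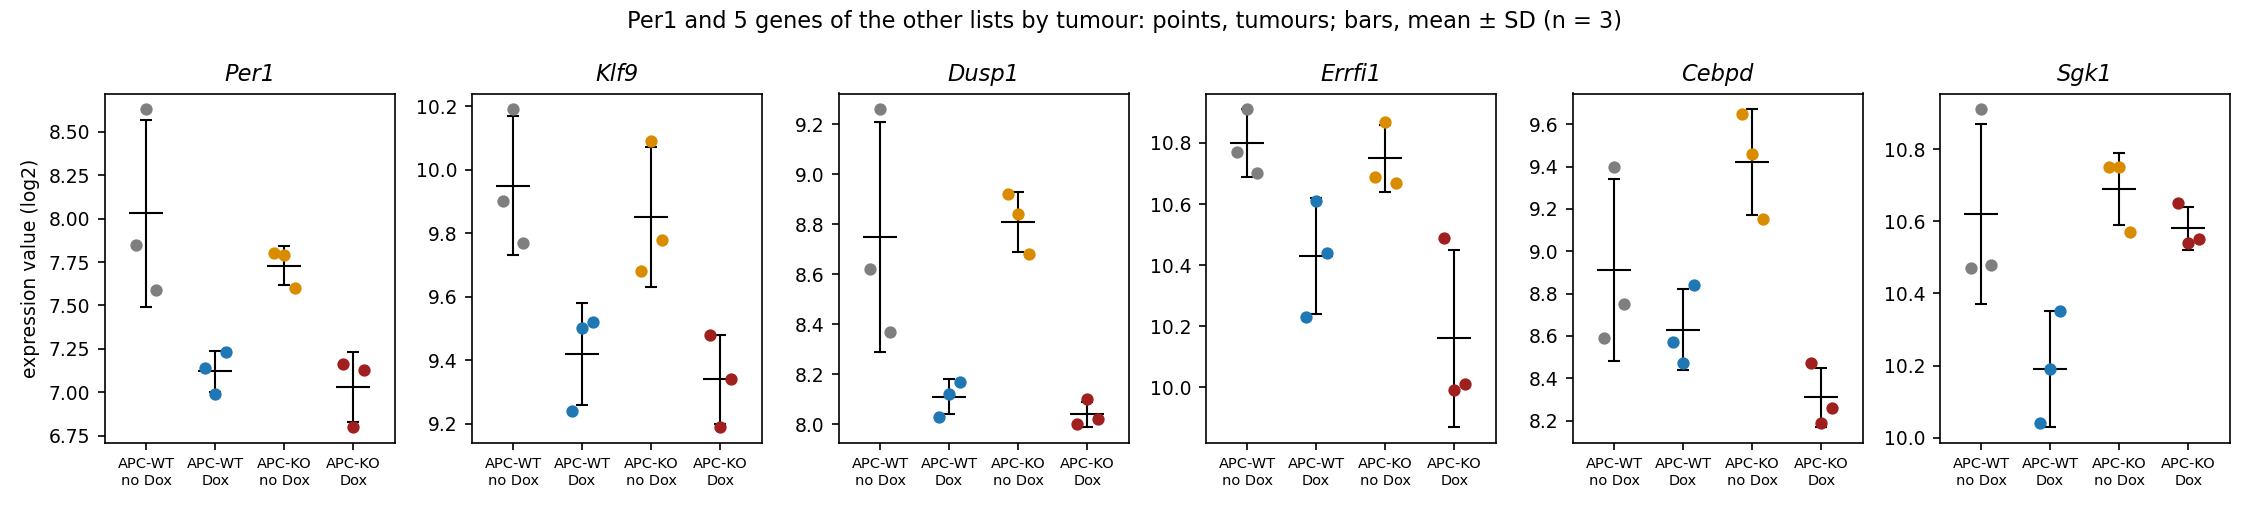
Log2 expression value (y axis) of Per1, Klf9, Dusp1, Errfi1, Cebpd and Sgk1 in the 4 groups (x axis); points are tumours and bars the mean ± SD of 3. In the Per1, Klf9, Dusp1 and Errfi1 panels each Dox group lies below the no-Dox group of its genotype without overlap, and APC-WT no-Dox tumour 2 is the highest APC-WT point in all 6 panels.

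Other measures also moved with doxycycline. Neutrophil markers S100a8 and S100a9, 2 of the 3 tested, fell in APC-KO tumours. There the summed log2 level of the list went from between 25.70 and 30.54 to between 18.33 and 21.37. In APC-WT tumours that sum was 18.95 to 23.80 without and 22.83 to 26.50 with doxycycline, and 0 markers passed. Of the 5 epithelial tumour cell markers 3 were tested, and 1, Krt8, fell with doxycycline averaged over genotypes. The summed log2 level of the 5 was 30.56 to 33.94 without and 28.80 to 29.58 with doxycycline in APC-WT tumours. In APC-KO tumours it was 29.13 to 31.78 and 27.64 to 28.73, with no overlap in either genotype. The list did not fall as a whole. Means of Krt8 went from 10.82 to 9.47 in APC-WT and from 9.60 to 8.26 in APC-KO tumours. Those of Epcam went from 7.09 to 7.28 and from 7.31 to 7.30, and those of Cdh1 from 5.88 to 5.13 and from 5.71 to 5.76. Krt18 and Krt19 lay under the floor. The 18S signal separated the Dox states in APC-KO tumours, where it was lower with doxycycline, and overlapped in APC-WT tumours. The Gapdh 3′ minus 5′ signal was lower with doxycycline without overlap in APC-WT tumours, and in APC-KO tumours it lay the other way with overlap. The part of these in the Per1 difference was not tested.

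Between genotypes the other clock genes were mixed in direction. Of the 17 partners and regulators of the clock 15 had a probe set and 10 were tested. Without doxycycline 2 were higher in APC-KO and 2 lower, where 24.9% of all tested genes passed in either direction. Their median was 0.05 beside 0.01 over all genes. With doxycycline 1 was higher and 2 lower, where 19.9% of all tested genes passed, and the median was -0.09 beside 0.01. Arntl2, a paralogue of Arntl that also pairs with CLOCK, was lower: 7.75, 7.66 and 7.59 in APC-WT no-Dox against 7.21, 7.30 and 7.23 in APC-KO no-Dox tumours, and 7.54, 7.63 and 7.65 against 7.21, 7.02 and 7.42 with doxycycline. Its groups did not overlap, and the differences were -0.42 ± 0.09 and -0.39 ± 0.09 (adjusted p 0.00489 and 0.00887), opposite in sign to those of Arntl. Ciart, a repressor of the CLOCK and BMAL1 pair, was higher without doxycycline by 0.60 ± 0.15 (adjusted p 0.0108), with 2 of 3 APC-WT no-Dox arrays under the floor, and was at -0.13 ± 0.15 with it. Btrc, a subunit of the ligase that marks PER proteins for breakdown, was higher by 0.30 ± 0.08 (adjusted p 0.0114) and Timeless, a gene now known mainly for replication, lower by 0.31 ± 0.08 (difference -0.31, adjusted p 0.0102). Btrc passed with its brightest probe set only, and the mean of its probe sets was at -0.05 ± 0.06. Nfil3, which represses through the D-box that Hlf, Dbp and Tef activate, was at -0.02 ± 0.12 without and lower by 0.43 ± 0.12 with doxycycline (difference -0.43, adjusted p 0.0191). That Nfil3 call was lost with APC-WT Dox tumour 1, APC-WT Dox tumour 3 or APC-KO Dox tumour 2 left out (adjusted p 0.0598, 0.0727 and 0.0874).

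Among the 8 clock-controlled outputs 7 were tested, and 1 was higher and 1 lower in APC-KO in each Dox state. Of all tested genes 24.9% passed without and 19.9% with doxycycline, in either direction. Usp2, a ubiquitin protease gene with a daily rhythm in many tissues, read 6.83, 6.97 and 6.88 in APC-WT no-Dox, 6.77, 6.91 and 6.86 in APC-WT Dox, 7.68, 7.49 and 7.27 in APC-KO no-Dox and 7.09, 7.14 and 7.35 in APC-KO Dox tumours. All APC-KO tumours lay above all APC-WT tumours, by 0.58 ± 0.10 without and 0.34 ± 0.10 with doxycycline (adjusted p 0.00109 and 0.0278). The second call was lost without APC-WT Dox tumour 1, 2 or 3 or APC-KO Dox tumour 3 (adjusted p 0.0866, 0.0541, 0.0755 and 0.1246). Klf10, a TGF-beta-inducible repressor, was lower by 0.43 ± 0.13 and 0.57 ± 0.13 (differences -0.43 and -0.57, adjusted p 0.0270 and 0.00732). The first was lost without APC-WT no-Dox tumour 1, 2 or 3 (0.0587, 0.0757 and 0.0504) or APC-KO no-Dox tumour 1 or 3 (0.0951 and 0.0889).

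Tumours of 1 group also differed among themselves. The standard deviation left within groups was 0.297 for Per1, 0.203 for Hlf, 0.198 for Dbp and 0.196 for Nr1d2, beside a median of 0.096 over all tested genes. Per1 stood at the 98.1st percentile of tested genes and Clock, at 0.081, at the 34.4th. With the group means taken out, Dbp, Per3 and Nr1d2 went up and down together over the 12 tumours. Pearson's r was 0.822 for Dbp and Per3 (Spearman's rho 0.727), 0.826 for Dbp and Nr1d2 (0.664) and 0.747 for Per3 and Nr1d2 (0.783). Without the 2 tumours farthest from the median r was 0.784, 0.70 and 0.693. Per1 ran the other way, with r of -0.678 against Nr1d2 and -0.423 against Dbp. Hlf had -0.511 against Nr1d2, -0.499 against Clock, -0.496 against Arntl and -0.284 against Dbp. Tef had -0.64 against Arntl, 0.724 against Dbp and 0.658 against Per3. The last 2 were 0.389 and 0.15 without the 2 farthest tumours. These 36 pairs are descriptions over points that share arrays, and 4 group means were removed from 12 tumours, so no p is given.

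**Figure D5:**
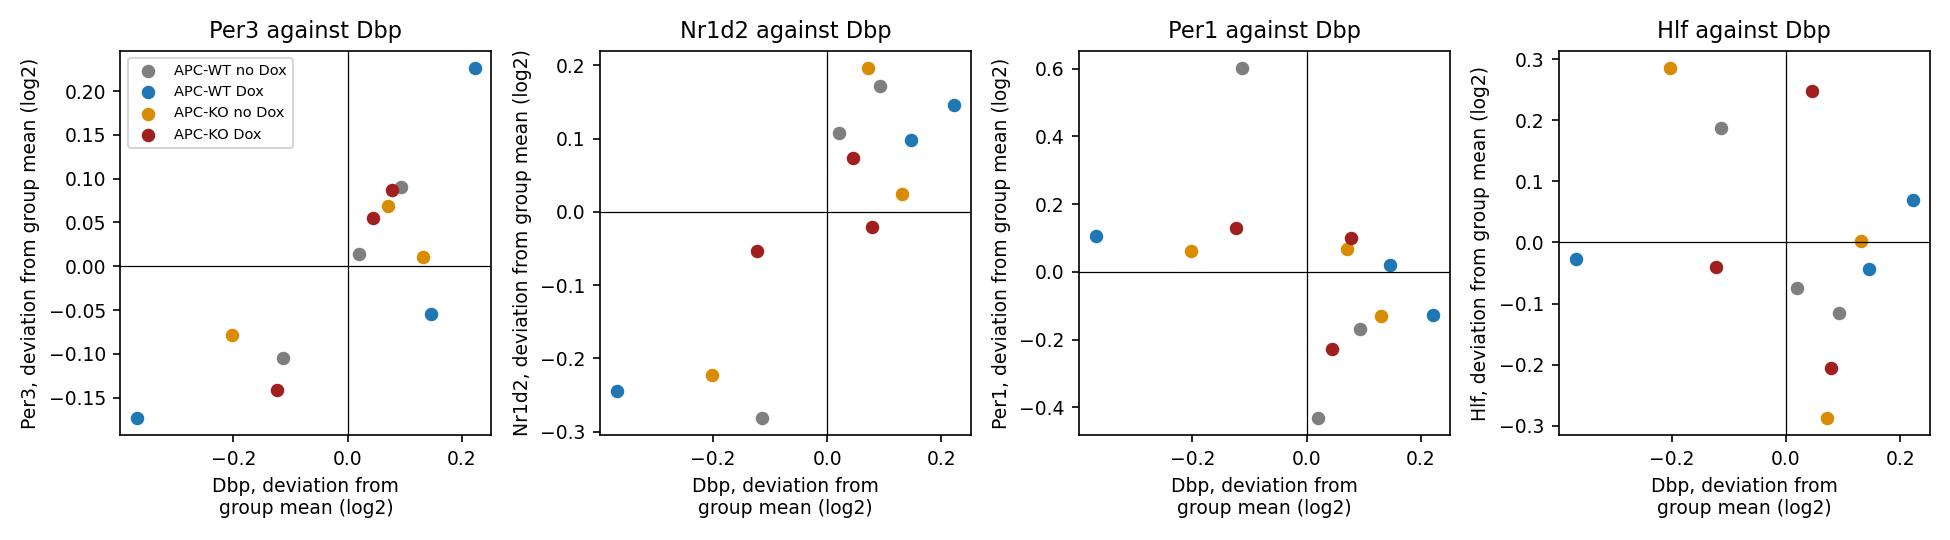
Deviation of each tumour from its group mean (log2) for Per3, Nr1d2, Per1 and Hlf (y axes) against that of Dbp (x axes); each point is 1 of 12 tumours, coloured by group. In the first 2 panels the points run from lower left to upper right (r 0.822 and 0.826), in the Per1 panel they lean the other way (r -0.423), and in the Hlf panel r is -0.284.

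The 6 genes whose values over the 12 arrays were most like those of Hlf were Usp11 (r 0.991), Ctps2 (0.991), Man2a1 (0.989), Gsta4 (0.985), Ap1s2 (0.983) and Sumf2 (0.983). Each was higher in APC-KO tumours in both states, by between 0.52 and 1.54. This follows from the choice, because Hlf varied over the arrays mostly by genotype. An r of at least 0.9 was reached by 322 tested genes. On chromosome 11, of the 10 tested genes nearest to Hlf, 5 on each side, Mmd, named after its value was seen, was higher in APC-KO by 1.08 ± 0.10 without doxycycline and 0.86 ± 0.10 with it. The others there lay between -0.47 and 0.33 without doxycycline. Of the 10 nearest to Arntl on chromosome 7, 2 were higher and 2 lower without doxycycline, between -0.64 and 0.47. Of all tested genes 24.9% passed there in either direction. With doxycycline these 10 lay between -0.29 and 0.87. The highest, Spon1, was at 0.87 ± 0.27 (adjusted p in limma 0.0396), above Arntl at 0.81, and was at -0.42 ± 0.27 without doxycycline.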

How the data were processed

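The authors' deposited values are log2 expression values, 1 per probe set and tumour, from 12 Affymetrix arrays. They were made with MAS5, per the submitters' processing notes. Its version, the scaling and the log step are not given in the sources, and the unit was taken as log2 because values ran from 1.86 to 14.16. Probe sets were named from the array's annotation, and 34945 of 45101 had 1 gene symbol, 932 several and 9160 none. For each gene the probe set of highest mean over the arrays was used. A group-means model over all 12 arrays was fitted with limma 3.58.1 in R 4.3.3 (lmFit, eBayes with a trend; statmod 1.5.0), 2-sided, over the 11070 genes at or above the floor of 5.55, and single probe sets in a second fit over all of them. The script was tested on simulated data.

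The members, lists and named genes were chosen with earlier results of these data known, and adjusted p-values are read with that in mind. The naming rule took every member. From each other list it took members that passed in any comparison, largest change first, up to 6, and filled up to 3. It also took the 6 genes most like Hlf by Pearson's r. Of 7 comparisons, 5 were planned and both averaged ones were added after the values were seen. Genes were tested only in this model, since the smallest p that an exact test of 3 against 3 allows is 0.1. Marker lists for fibroblasts, endothelium, smooth muscle, adipocytes, hepatocytes, colon epithelium, epithelial tumour cells, macrophages, neutrophils, T and NK cells, B and plasma cells and nerve were read alongside. Array medians lay between 5.53 and 5.58, and for arrays the number of tumours limits the precision. Alternatives covered the probe set, floor, normalization, array weights, trend, the samples in the fit, a replicate block and leaving out each array. Plots were made in Python 3.11.15 with matplotlib 3.10.9.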

Additional observations from a re-analysis of the deposited data

How the results depend on the processing

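The count of clock genes that passed, with Hlf counted, was 0 with Dox in APC-WT tumours, and 1 (Per1) with array quality weights, a setting under which 653 of all tested genes passed against 3. In APC-KO tumours it was 0, and 1 (Per1) with only the groups compared, where 36 of all tested genes passed against 60. With single arrays left out it ran from 0 to 1 in both and in the averaged Dox comparison. With the floor at the 75th percentile only 4 of the genes were left to test, neither Hlf nor Per1 among them. The count was then 1 (Arntl) between genotypes without and with Dox, against 2, and 0 with Dox averaged, against 1. Directions turned with the probe set for Clock and Btrc. Clock with Dox was at -0.325 with another probe set, and averaged over Dox it was at -0.083 with the mean of probe sets and at -0.178, -0.265 and -0.03 with its other probe sets. Btrc was at -0.048, -0.029 and -0.039 with the mean of probe sets, without Dox, with Dox and averaged. Why probe sets of a gene differ was not tested. Hlf kept its direction in the genotype comparisons, at 1.452 and 1.482 with the mean of its probe sets. Of 1303 alternative values for the clock genes 1270 were counted as unchanged, 122 of them with the other sign and no call on either side. Of the rest 16 lost and 6 gained a call, 5 turned and 6 moved. Hlf is among the 1303 but had no test and so no side of a threshold. The 6 that moved were all values of Hlf. The labels do not say whether the replicate number pairs tumours. Over 18 pairs r of same-numbered arrays ran from -0.221 to 0.175, which cannot exclude a pairing with 3 tumours a group. With the replicate block the counts of clock genes stayed, with Hlf counted, at 0, 0, 2, 2 and 0 in the planned comparisons. Hlf was 1 of each 2 and was chosen on that difference, so its part in these counts was fixed in advance. Per1 averaged over genotypes was at -0.803 with the block (adjusted p in limma 0.0346).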

Other observations

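Of the 20 genes most like Hlf over the 12 arrays 12 lie on chromosome X, where 327 of the 11070 tested genes (2.95%) lie; Hlf itself lies on chromosome 11. Of the tested genes on X 30.3% were higher in APC-KO tumours without Dox and 31.5% with it, beside 13.8% and 11.9% of all tested genes. This was noticed after the values were seen and was not tested further.

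Among the acute response genes Junb, a subunit of the AP-1 factor, was higher in APC-KO tumours by 0.87 ± 0.13 without Dox and by 0.50 ± 0.13 with it (adjusted p in limma 0.000395 and 0.0163). The second call was lost without APC-WT Dox tumour 2 or 3 (adjusted p 0.0537 and 0.0643) or APC-KO Dox tumour 1 or 3 (0.0555 and 0.0638).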
